A study of Mus musculus with 6 samples.

Results

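This section describes 37 genes of the actin cytoskeleton and of myofibroblasts in differentiating 3T3L1 cells. They were listed by gene symbol, by a choice made with earlier results of these data known, and all 37 were found among the 53342 genes of the deposited table. The set has 16 genes of the general actin cytoskeleton, 14 smooth muscle and contractile genes, 3 targets of the factors YAP and SRF (Ankrd1, Ctgf and Cyr61), and 4 genes for SRF, its cofactors and YAP (Srf, Mkl1, Mkl2 and Yap1). 3T3L1 is a clonal mouse line of fibroblast-like preadipocytes. In all 3 groups, cells that had been confluent for 2 days were induced for 2 days with the glucocorticoid dexamethasone (1 µM), the phosphodiesterase inhibitor IBMX (0.5 mM) and insulin (1 µg/ml), and then held on insulin. The serum given for all 3 groups was 10%. The untreated group received nothing else, a second group received the solvent DMSO, and the third received LTK-14A, which the series title calls an inhibitor of butyrylation. Each group had 2 samples, numbered 1 and 2. The labels do not say whether these were separate cultures, so the spread behind each p-value may be technical. How much LTK-14A was given, and from which day, is not stated in the labels.

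Actin filaments with nonmuscle myosin form the stress fibres of fibroblasts, and smooth muscle cells and myofibroblasts add contractile proteins such as alpha smooth muscle actin, smooth muscle myosin, calponin and desmin. Many of these genes are controlled by serum response factor, SRF, whose cofactors MRTF-A and MRTF-B (genes Mkl1 and Mkl2) are held back by monomeric actin, and by YAP, which acts through TEAD factors. Preadipocytes that become round, lipid-filled adipocytes are known to take their stress fibres apart.

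Total RNA was sequenced from the 6 libraries, whose normalized values summed to between 6122687 and 7091007. Depth as reads is unknown, and values of the lowest members rest on few reads. The first principal component (69.05% of the variance) separated LTK-14A from the rest, and the second (15.62%) set untreated replicate 2 apart. That library had 16.4% of its sum in ribosomal RNA loci, against 8.60% to 10.6% in the others. All 12 markers of mature adipocytes were above 0 in every untreated and DMSO library. They were above 0 in the LTK-14A libraries too, except Lep in LTK-14A replicate 1, so presence alone does not separate the groups. The summed level of those markers was 48957 and 38788 in untreated, 42314 and 41546 in DMSO, and 4151 and 4831 in LTK-14A libraries. Of the 12, 12 passed the test as lower with LTK-14A than with DMSO, where 6.58% of all genes tested did. Preadipocyte and fibroblast markers summed to 69314 and 106373, to 64997 and 70472, and to 96216 and 100694, in the same order. Most of each sum came from Col1a1, Col3a1 and Fn1. Fn1 stood at 13157 and 14030, 11442 and 11306, and 33277 and 33981. Pdgfra stood at 6129 and 6642, 6088 and 6729, and 5216 and 5452. With LTK-14A against DMSO, 4 of the 10 that could be tested rose (Dlk1, Fn1, Thy1 and Vim), where 3.98% of all genes did, and 0 fell. RNA from a dish cannot tell fewer cells of a type from less RNA per cell.

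RefSeq promoter windows (build GRCm38.p6, from 250 bases before to 50 bases after an annotated start) were at hand for 32 of the 37 genes, in 41 windows. They show where the binding motifs of the factors named above lie. No window was at hand for Actb, Actg2, Tagln, Myh11 and Ctgf, so their motifs are unknown here. The CArG box was counted only as exact letters: CC, then 6 letters of A or T, then GG. The CArG box, the motif bound by SRF, was present in the windows of 6 of the 32 genes (Actg1, Cnn2, Myl6, Myl9, Srf and Vcl), or 14.63% of the members' windows, against 1.629% of all 32851 windows in the table. The motif GGAATG, the core bound by TEAD factors, was present on either strand for 15 of the 32, or 39.02% of windows against 14.66% of all windows. The members were picked as genes of this pathway, many known to be controlled by SRF or YAP. Their motif shares cannot be read apart from that choice. The first 2 sequences are 30-base stretches around the 2 matches of Ankrd1. Its 250 bases before the RefSeq start all lie in annotated exons. The next 3 are the stretches before a start of Cald1, Mylk and Myh10 that lie in no annotated exon, and the last is the same for Srf, which holds 2 CArG boxes. They are shown because these genes hold a motif and either passed the test described next or, for Srf, encode the factor itself. Capitals mark GGAATG, or CATTCC where it lies on the other strand, and in Srf the CArG boxes.
Ankrd1, chr19:36120037-36120066, minus strand: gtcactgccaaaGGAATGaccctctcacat
Ankrd1, chr19:36119950-36119979, minus strand: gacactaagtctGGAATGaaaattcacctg
Cald1, chr6:34598254-34598499, plus strand: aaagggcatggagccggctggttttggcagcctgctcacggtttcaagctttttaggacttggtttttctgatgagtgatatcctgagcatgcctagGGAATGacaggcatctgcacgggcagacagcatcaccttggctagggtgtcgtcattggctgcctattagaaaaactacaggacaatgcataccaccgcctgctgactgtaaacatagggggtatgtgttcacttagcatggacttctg
Mylk, chr16:34784700-34784920, plus strand: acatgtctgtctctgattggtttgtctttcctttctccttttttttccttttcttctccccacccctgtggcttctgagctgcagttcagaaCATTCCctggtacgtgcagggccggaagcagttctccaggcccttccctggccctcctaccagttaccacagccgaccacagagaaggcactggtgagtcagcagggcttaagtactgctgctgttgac
Myh10, chr11:68691843-68691914, plus strand: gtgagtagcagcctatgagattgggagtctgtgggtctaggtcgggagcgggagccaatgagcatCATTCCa
Srf, chr17:46556176-46556412, minus strand: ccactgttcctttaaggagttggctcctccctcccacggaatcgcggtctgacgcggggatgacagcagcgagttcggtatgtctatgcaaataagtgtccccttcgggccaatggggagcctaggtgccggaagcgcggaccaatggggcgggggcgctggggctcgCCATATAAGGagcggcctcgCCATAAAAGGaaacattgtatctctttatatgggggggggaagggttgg
A match describes these letters and is not a bound site. A gene without a match may hold the motif outside its window or in other letters. For LTK-14A against DMSO, only members with a window can be counted, which leaves out Myh11 among the lower genes. GGAATG lay in the windows of 3 of 6 higher genes, 1 of 2 lower genes and 11 of 24 genes that did not pass. The exact CArG box lay in 0 of 6, 0 of 2 and 6 of 24.

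The main comparison set LTK-14A against its solvent and asked how the compound changes the cells. The smooth muscle and contractile genes Mylk, Cald1, Tpm2 and Sorbs2 rose, while desmin (Des) and smooth muscle myosin (Myh11) fell. Of the general cytoskeleton, Tpm4 rose and the nonmuscle myosin gene Myh10 fell, and of the targets Ankrd1 rose. Of the 37 genes, 6 rose, where 3.98% of the 24139 genes tested did, and 3 fell, where 6.58% did. The other 28 did not pass. The 2 LTK-14A libraries lay above both DMSO libraries for 24 members (24.5% of all genes) and below them for 6 (29.8% of all genes). The median log2 fold change was 0.31 over the members and -0.05 over all genes tested. With 2 libraries a group, these counts turned on single libraries. Without any 1 of the DMSO and LTK-14A libraries fewer members passed, and a smaller share of all genes passed too. Without 1 of the untreated libraries more members passed, and so did a larger share of all genes. Mylk, Cald1, Tpm2, Tpm4, Myh10 and Myh11 lost their call without any 1 of the DMSO and LTK-14A libraries (adjusted p = 0.0888 to 0.224) and without the variance trend (0.0727 to 0.177), Des without either DMSO library or LTK-14A replicate 2 (0.0572 to 0.0753), Sorbs2 without either LTK-14A library (0.0635 and 0.0697), and Ankrd1 without LTK-14A replicate 1 (0.0546).

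**Figure D1:**
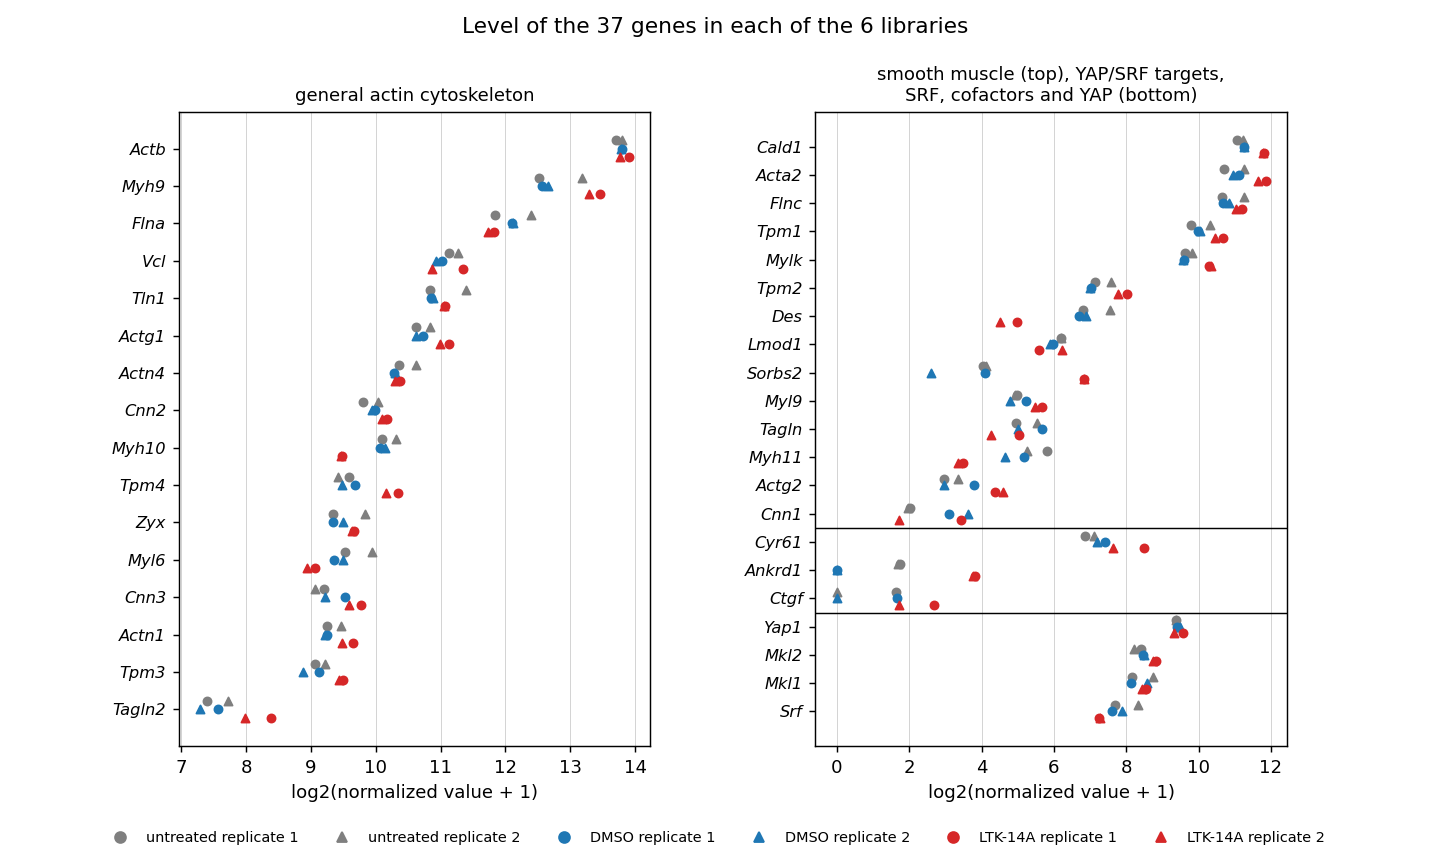
Level of each of the 37 genes in each library, as log2(normalized value + 1), on the horizontal axis, with grey for untreated, blue for DMSO and red for LTK-14A libraries, circles for replicate 1 and triangles for replicate 2. Most members sit within 1 unit across all 6 libraries, while Des and Myh11 lie to the left, and Sorbs2 and Ankrd1 to the right, in both LTK-14A libraries.

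Among the 4 actins, cytoplasmic beta-actin (Actb) had the highest level per kilobase of exon of all members. Its normalized values were 13299 and 14275 in untreated, 14221 and 14162 in DMSO, and 15329 and 14007 in LTK-14A libraries. The groups overlapped, and LTK-14A stood 0.05 log2 units above DMSO (SE 0.13, adjusted p = 0.870, limma), and the sign turned to -0.15 after quantile normalization. Alpha smooth muscle actin (Acta2, chromosome 19, 34241090 to 34255336 in mm10), the usual marker of myofibroblasts, came next per kilobase, at 1663 and 2439, 2218 and 1988, and 3700 and 3182. Both LTK-14A libraries lay above the other 4. The log2 fold change was 0.71 (SE 0.19) with an adjusted p of 0.0560 against DMSO, which missed the threshold. Acta2 passed in 6 of 15 other settings. Its adjusted p ran from 0.00437, with both untreated libraries left out of the model, to 0.283, without LTK-14A replicate 1, and it did not pass without any 1 of the DMSO and LTK-14A libraries. Cytoplasmic gamma-actin (Actg1) stood at 1568 and 1825, 1693 and 1582, and 2239 and 2033, and enteric gamma smooth muscle actin (Actg2) at 6.74 and 9.25, 12.9 and 6.76, and 19.7 and 22.9. LTK-14A was the highest group for both genes, and neither passed (adjusted p = 0.0998 and 0.201). Of the 50-base stretches of Actg1 transcripts, 37.4% also occur in transcripts of other genes, against 0.326% for Acta2, so the value of Actg1 is uncertain.

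Of the genes that switch smooth muscle contraction on or off, the kinase and caldesmon rose. Myosin light chain kinase (Mylk, chromosome 16, 34745210 to 35002420) stood at 784 and 901, 771 and 766, and 1245 and 1305, and rose with LTK-14A (log2 fold change 0.73, SE 0.12, adjusted p = 0.00923). Caldesmon (Cald1, chromosome 6, 34598500 to 34775473), which binds actin and tropomyosin and holds back myosin, stood at 2123 and 2380, 2454 and 2450, and 3581 and 3514, and rose too (0.53, SE 0.11, adjusted p = 0.0241). The LTK-14A libraries were above all others for both genes. Calponin (Cnn1), which also restrains myosin, was near the floor at 3.03 and 2.92, 7.54 and 11.3, and 9.78 and 2.29, with overlapping groups. The regulatory light chain Myl9 stood at 30.8 and 29.7, 36.5 and 26.4, and 50.4 and 43.4 (adjusted p = 0.279).

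The tropomyosins, which lie along the actin filament, were each above both DMSO libraries in both LTK-14A libraries, as 24.5% of all genes were. Of the 4, 2 passed as higher, where 3.98% of all genes tested did. Tpm2 (chromosome 4, 43514711 to 43523765) stood at 140 and 191, 130 and 128, and 259 and 217, and rose (0.88, SE 0.20, adjusted p = 0.0307). Tpm4 (chromosome 8, 72134975 to 72153142), the tropomyosin with the highest level per kilobase, stood at 772 and 682, 822 and 711, and 1300 and 1143, and rose (0.67, SE 0.14, adjusted p = 0.0219). For Tpm2, both untreated libraries lay above both DMSO libraries as well. Tpm1 stood at 881 and 1273, 1018 and 1051, and 1644 and 1398 (log2 fold change 0.55, adjusted p = 0.103), and Tpm3 at 533 and 597, 557 and 467, and 719 and 692 (0.47, adjusted p = 0.0729). Tpm3 and Tpm4 share 23.2% and 11.7% of their 50-base stretches with other genes.

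The 3 members that fell were Des, Myh11 and Myh10, where 6.58% of all genes tested fell. Desmin (Des, chromosome 1, 75360329 to 75368579), the intermediate filament of muscle cells, stood at 111 and 186, 103 and 117, and 30.6 and 22. Both LTK-14A libraries were far below the other 4, and the log2 fold change was -2.04 (SE 0.30, adjusted p = 0.00625). Smooth muscle myosin heavy chain (Myh11, chromosome 16, 14194527 to 14291408) stood at 55.7 and 37.3, 35.5 and 24.2, and 10.1 and 9.16 (-1.51, SE 0.38, adjusted p = 0.0466). Nonmuscle myosin IIB (Myh10, chromosome 11, 68691559 to 68816632) stood at 1100 and 1267, 1075 and 1133, and 712 and 709 (-0.63, SE 0.12, adjusted p = 0.0166). Nonmuscle myosin IIA (Myh9) was at 5892 and 9269, 6064 and 6425, and 11293 and 9993. LTK-14A was the highest group for Myh9, but its log2 fold change of 0.77 (SE 0.21) had an adjusted p of 0.0596. Myh9 passed in 7 of 15 other settings, with an adjusted p from 0.00132, with both untreated libraries left out of the model, to 0.283, without LTK-14A replicate 1, and it did not pass without any 1 of the DMSO and LTK-14A libraries. The fall of Myh11 also missed the threshold after quantile normalization (adjusted p = 0.0650), after scaling by the median of ratios (0.0512), with a pseudocount of 0.1 (0.0523) and when the untreated libraries were left out of the model (0.0507).

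**Figure D2:**
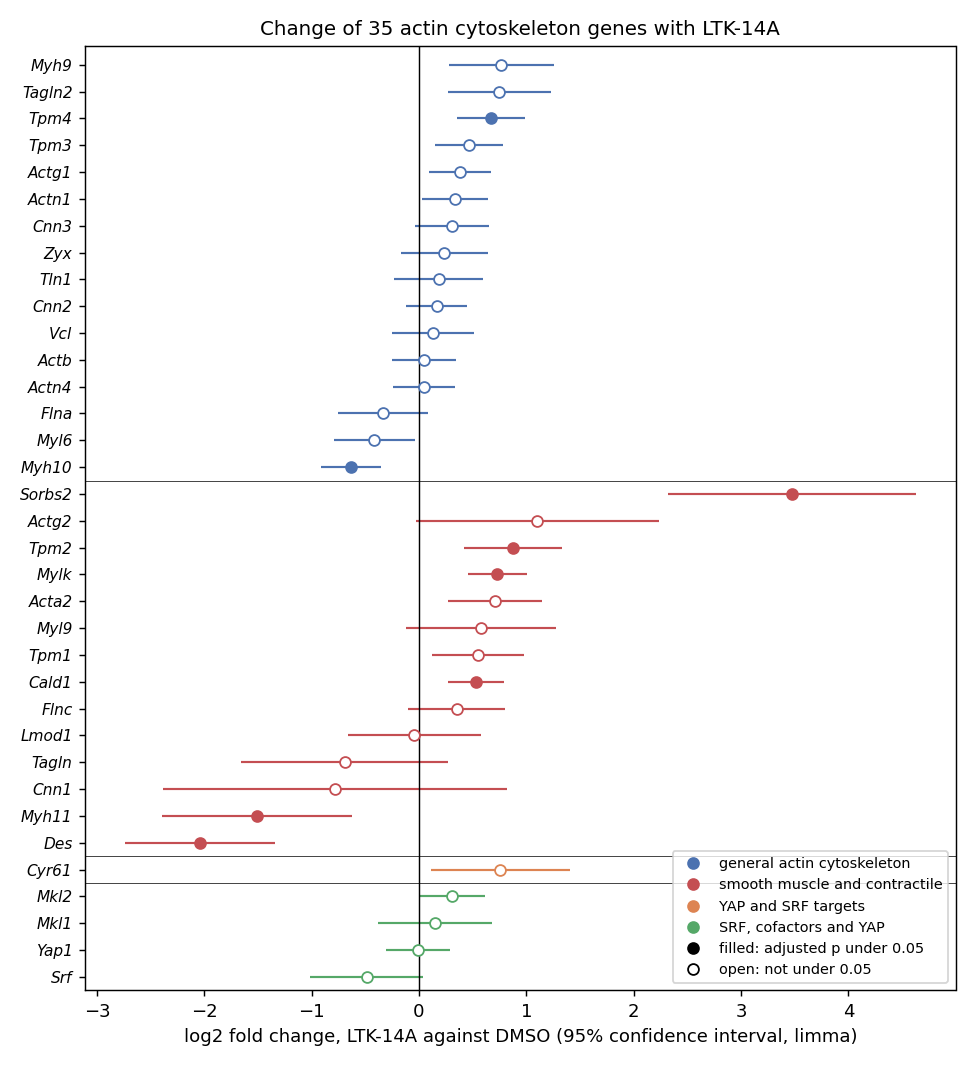
Log2 fold change of LTK-14A against DMSO on the horizontal axis for 35 genes, with 95% confidence intervals from limma and filled points where the adjusted p was under 0.05; Ankrd1 and Ctgf are left out because they were listed at 0 in DMSO libraries. Of the 16 general cytoskeleton genes 13 have a positive fold change, and their intervals reach from -0.91 (Myh10) to 1.255 (Myh9). Fold changes of the smooth muscle genes range from -2.04 for Des to 3.48 for Sorbs2.

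Sorbs2 (chromosome 8, 45507788 to 45827906), an adaptor that ties actin structures to signalling proteins in muscle and epithelia, had the largest fold change of the 35 genes that have one. It stood at 15.5 and 16.5, 16.2 and 5.11, and 113 and 113. Its log2 fold change was 3.48 (SE 0.49, adjusted p = 0.00538), and the groups were well apart. It was 4.22 without DMSO replicate 1 and 2.73 without DMSO replicate 2, which had the lower value. The remaining smooth muscle genes did not pass. Leiomodin (Lmod1), which starts new actin filaments in smooth muscle, stood at 72.1 and 72.1, 62.2 and 58.7, and 46.8 and 73.3. Transgelin (Tagln), an early smooth muscle marker, stood at 29.9 and 45.0, 50.3 and 31.2, and 32.1 and 18.1, and 67.9% of its exon length lies opposite exons of Pcsk7 and Gm48529. The groups overlapped for both. Muscle filamin (Flnc) stood at 1614 and 2444, 1648 and 1820, and 2343 and 2087 (0.35, adjusted p = 0.311). In the 14 smooth muscle genes, 4 rose, where 3.98% of all genes tested did, 2 fell, where 6.58% did, and 8 did not pass. Their median log2 fold change was 0.54, against -0.05 over all genes tested.

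The 16 general cytoskeleton genes gave 1 that rose, Tpm4, 1 that fell, Myh10, and 14 that did not pass. Over all genes tested, 3.98% rose and 6.58% fell. The median log2 fold change was 0.21 in this group and -0.05 over all genes tested. Transgelin 2 (Tagln2), an actin-binding protein of most cell types, stood at 168 and 211, 190 and 156, and 333 and 252 (0.75, SE 0.20, adjusted p = 0.0598). The nonmuscle calponin genes Cnn2 (895 and 1046, 1019 and 980, 1156 and 1088) and Cnn3 (589 and 532, 734 and 594, 872 and 766) had log2 fold changes of 0.17 and 0.31. Both were above DMSO in both LTK-14A libraries, by less than the test requires. The crosslinker filamin A (Flna) stood at 3665 and 5369, 4398 and 4446, and 3606 and 3406, and the essential myosin light chain Myl6 at 735 and 986, 652 and 720, and 534 and 492. They and Myh10 were the 3 members of the group with a negative fold change (Flna -0.34, adjusted p = 0.292; Myl6 -0.42, adjusted p = 0.151). The alpha-actinins, which bundle filaments, had log2 fold changes of 0.34 (Actn1) and 0.04 (Actn4). The adhesion proteins vinculin (Vcl), zyxin (Zyx) and talin (Tln1), which tie stress fibres to integrins, had 0.13, 0.24 and 0.18. None of these 5 passed, and 25.5% of the exon length of Vcl lies opposite exons of Ap3m1.

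The 3 targets of YAP and SRF were higher in both LTK-14A libraries than in both DMSO libraries, as 24.5% of all genes were. Of these targets 1 passed as higher, where 3.98% of all genes tested did. Ankrd1 (chromosome 19, 36111965 to 36119844) is an ankyrin repeat protein of nucleus and sarcomere, and stretches before its RefSeq start are printed above. It stood at 2.38 and 2.20 in untreated cells, was listed at 0 in both DMSO libraries, and stood at 13.2 and 12.7 with LTK-14A (adjusted p = 0.00546, limma). No fold against DMSO is given for that reason. Cyr61, a secreted matrix protein that binds integrins, stood at 115 and 138, 171 and 144, and 357 and 199. The LTK-14A values spread more than the others, and the log2 fold change of 0.76 (SE 0.28) had an adjusted p of 0.133. Ctgf, a related matrix protein tied to fibrosis, was at or near the floor everywhere, at 2.08 and 0, 2.15 and 0, and 5.40 and 2.29.

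The genes for the factors themselves did not pass. Srf stood at 205 and 318, 194 and 236, and 152 and 153, so that LTK-14A was the lowest group (-0.49, SE 0.23, adjusted p = 0.226). Mkl1 stood at 283 and 426, 278 and 378, and 374 and 348, and Mkl2 at 340 and 295, 353 and 358, and 454 and 428 (0.31, SE 0.13, adjusted p = 0.187). Yap1 stood at 665 and 667, 681 and 724, and 761 and 638. Its log2 fold change of -0.01 had a 95% confidence interval from -0.31 to 0.29, so a change within those bounds was not detectable.

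Shares within a family do not depend on the scaling between libraries, and they are given here from values per kilobase of exon, without a test. Acta2 made up 12% and 15.6% of the 4 actins in untreated, 14.5% and 13.3% in DMSO, and 20.4% and 19.4% in LTK-14A libraries. The share of Actb was 76.7% ± 2.75, 77% ± 1.14 and 69.7% ± 0.605 (mean ± SD, n = 2). Myh10 made up 18.5% and 14.4%, 17.8% and 17.8%, and 7.22% and 8.05% of the 3 myosin heavy chains, and Myh9 made up 82.6% ± 3.42, 81.5% ± 0.215 and 92.2% ± 0.585. The ratio of Myh9 to Myh10 per kilobase was 4.34 and 5.92, 4.57 and 4.59, and 12.8 and 11.4. Flnc made up 30.6% and 31.3%, 27.3% and 29.0%, and 39.4% and 38.0% of the 2 filamins, and Actn1 33.6% ± 0.375, 34.7% ± 0.357 and 39.4% ± 1.18 of the 2 alpha-actinins. For these 4 families the LTK-14A libraries lay outside the range of the other 4. The share of Tagln among transgelins was 17.0% ± 1.80, 19.6% ± 3.11 and 8.09% ± 1.53. It lay outside that range too, at 9.17% and 7.01% with LTK-14A against 15.7% to 21.75% in the other libraries. The shares of the tropomyosins and calponins moved by less: Tpm4 was at 51.3% ± 7.16, 54.6% ± 1.89 and 56.2% ± 0.0394, and Cnn3 at 31.9% ± 3.92, 34.7% ± 2.84 and 37.0% ± 1.05.

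**Figure D3:**
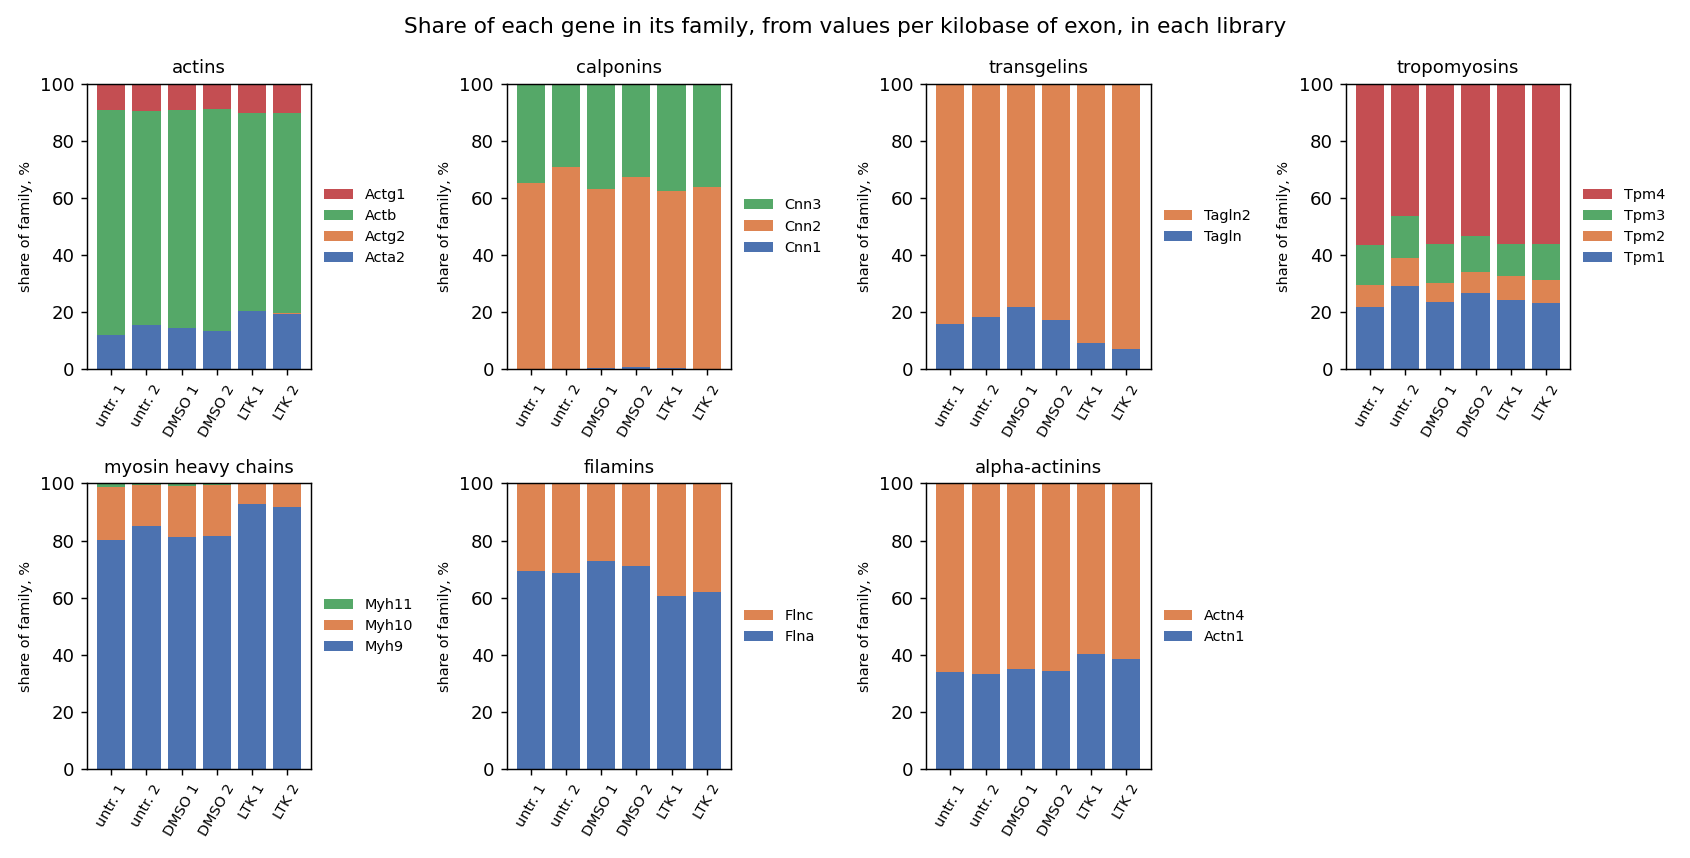
Stacked bars give the share, in percent, of each gene in its family, from values per kilobase of exon, with 1 bar for each library (untr., untreated; LTK, LTK-14A). In the 2 LTK-14A bars the Acta2 share is near 20% against 12% to 15.6% in the other libraries, and the Myh10 share is at most 8.05% against at least 14.4%.

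Per kilobase and averaged over all libraries, the order of the members ran from Actb at 5306, Acta2 at 1153 and Actg1 at 686 to Cnn1 at 2.24, Ankrd1 at 1.76, Sorbs2 at 1.67 and Ctgf at 0.694. Sorbs2 has 27851 bases of annotated exon, from many isoforms, which lowers its value per kilobase. Together the 37 genes made up 0.708% and 0.794% of the normalized sum in untreated, 0.786% and 0.759% in DMSO, and 0.949% and 0.879% in LTK-14A libraries. The smooth muscle genes made up 0.119% and 0.141%, 0.140% and 0.134%, and 0.204% and 0.192%. From 93.8% to 95.7% of that share came from Acta2, Cald1, Flnc, Tpm1 and Mylk, which fibroblasts also express. Of markers of other contractile cells, the skeletal muscle factors Myod1 and Myog and the cardiac actin Actc1 were at 0 in all 6 libraries, and the smooth muscle coactivator Myocd was between 0 and 2.29. The 29 markers of skeletal and heart muscle summed to 108 to 126 in untreated and DMSO and to 195 and 147 in LTK-14A libraries, with Ttn the largest part. Of 13 that could be tested against DMSO, 1 rose and 1 fell, where 3.98% and 6.58% of all genes did. Myom2 rose, at 3.57 and 3.17, 0 and 0, and 19.8 and 16.0. Mb fell, at 16.6 and 10.3, 13.2 and 11.8, and 0 and 2.58. Pericyte markers summed to between 1607 and 2353, most of it from Pdgfrb (1379 to 1890), with Abcc9 and Kcnj8 at 0 in all libraries. Of the 5 that could be tested 1 fell with LTK-14A against DMSO, where 6.58% of all genes did. It was Mcam, at 174 and 173 in DMSO and 5.13 and 7.91 in LTK-14A libraries. Endothelial markers summed to at most 9.58 and macrophage markers to at most 87.9 in any library. Of the 2 macrophage markers that could be tested 1 rose, where 3.98% of all genes did. It was Cd68, at 14.9 and 16.6 in DMSO and 62.3 and 67.2 in LTK-14A libraries. The part of adipocyte, preadipocyte and muscle markers in the changes of the 37 genes was not tested.

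DMSO against untreated cells asked what the solvent does by itself. None of the 37 genes rose or fell: 0 passed in either direction, where 0.0249% of all genes passed as higher and 0% as lower. At an unadjusted p under 0.05 there was 1 member, Ankrd1 (adjusted p = 0.804, limma), listed at 0 with DMSO and at 2.38 and 2.20 without it, among 1408 genes in all. The other log2 fold changes ran from -0.73 for Sorbs2 to 1.37 for Cnn1, and the median was -0.10 against -0.0035 over all genes. DMSO libraries lay above both untreated libraries for 6 members (16.0% of all genes) and below for 9 (17.2% of all genes). Intervals were wide for low genes, such as -0.24 to 2.97 for Cnn1, and narrower for Acta2 (0.06, from -0.38 to 0.50) and Cald1 (0.13, from -0.13 to 0.39).

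LTK-14A against untreated cells shares its LTK-14A libraries with the main comparison and its untreated libraries with the solvent comparison. Here 7 of the 37 genes rose, where 4.68% of all genes did, and 4 fell, where 8.17% did. Acta2 rose (log2 fold change 0.77, SE 0.19, adjusted p = 0.0378), and so did Cyr61 (1.07, SE 0.28, adjusted p = 0.0451). Ankrd1 rose from 2.38 and 2.20 to 13.2 and 12.7 (2.09 on the log2(value + 1) scale, adjusted p = 0.0460). The other rises were those of Cald1 (0.66), Mylk (0.60), Sorbs2 (2.75) and Tpm4 (0.75). Des fell by 2.43 (SE 0.30, adjusted p = 0.00261), Myh11 by 2.13, Myh10 by 0.73 and Myl6 by 0.73 (SE 0.16, adjusted p = 0.0259). Tpm2 had a log2 fold change of 0.54 (adjusted p = 0.121) here against 0.88 with DMSO as the control, and Myl6 had -0.73 here against -0.42. Mkl2 and Srf were close to the threshold in opposite directions (0.48, adjusted p = 0.0554, and -0.74, adjusted p = 0.0737). The groups did not overlap for 20 members as higher (24.6% of all genes) and for 6 as lower (28.9% of all genes), and the median was 0.32 over the members and -0.03 over all genes. Without any 1 of the LTK-14A and DMSO libraries fewer members passed, and a smaller share of all genes passed too. Without untreated replicate 1 more members fell, and so did a larger share of all genes. The log2 fold change of Des ran from -2.80 to -2.06 over all other settings. The calls of Acta2, Cyr61, Ankrd1, Mylk and Myl6 did not hold when both DMSO libraries, or either one, were left out of the model, and over all settings their adjusted p reached 0.235, 0.218, 0.176, 0.138 and 0.171. Ankrd1 also missed the threshold without any 1 of the other 4 libraries.

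Other genes of the pathway were read from lists that do not hold the 37, and the counts of each list stand against 3.98% of all genes that rose and 6.58% that fell. Of the genes named from these lists, Gadd45a, F3, Aoc3, Sncg, Fhl1 and Npnt passed in all 15 other settings. The others named below as passing lost their call without the variance trend and without any 1 of the DMSO and LTK-14A libraries (adjusted p up to 0.237), except that Parvb passed without DMSO replicate 2. Of 40 genes of actin nucleation, capping and turnover, 8 rose with LTK-14A against DMSO and 0 fell, with a median log2 fold change of 0.20. Capg, which caps filament ends, stood at 146 and 205, 134 and 132, and 333 and 312 (1.27, adjusted p = 0.00658). Destrin (Dstn), which takes filaments apart, stood at 727 and 642, 744 and 778, and 1269 and 1281 (0.74). Enah, which promotes filament growth, and moesin (Msn), which links filaments to the membrane, had log2 fold changes of 0.69 and 0.60. All 4 were higher in both LTK-14A libraries than in the other 4 libraries.

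Of 29 focal adhesion adaptors, 4 rose and 1 fell (median 0.34). Parvb and Lims1, partners of integrin-linked kinase, rose by 1.3 and 0.61.

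Of 22 genes of the Hippo pathway and TEAD factors, 2 rose and 3 fell (median 0.12), where 3.98% and 6.58% of all genes did. Vgll4, which competes with YAP for TEAD factors, fell by 0.72, and Nf2 and Ptpn14, which restrain YAP, fell by 0.57 and 0.54. Amot, a binder of YAP, rose by 0.75. Tead4, which the naming rule leaves out and which was chosen after its values were seen, was at 47.2 and 31.1, 37.9 and 50.2, and 122 and 103 (1.34, adjusted p = 0.0280). Of 20 other genes known as YAP and TAZ targets, 5 rose and 2 fell (median 0.34). The stress gene Gadd45a stood at 204 and 210, 162 and 190, and 560 and 585 (1.70, SE 0.14, adjusted p = 0.000535). Tissue factor (F3) stood at 965 and 1175, 1116 and 1086, and 2681 and 2565 (1.25, SE 0.13, adjusted p = 0.00127). The LTK-14A libraries were the highest for both. Myof and the receptor gene Axl rose by 0.87 and 0.89. Ptpn14, Amotl2 and Lats2 are in both of these lists.

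Of 9 immediate early SRF targets, 1 rose, the AP-1 gene Junb (0.95, adjusted p = 0.0430), and 0 fell (median 0.08), against the same 3.98% and 6.58%. Of 19 other smooth muscle and myofibroblast markers that could be tested, 1 rose and 4 fell (median -0.17). Those of smallest adjusted p were Aoc3 (-1.37), Sncg (-2.71), Npnt, at 133 and 66.7, 85.0 and 72.2, and 8.55 and 4.58, and Fhl1, at 40.9 and 45.7, 51.4 and 53.6, and 1.80 and 0. Aoc3, an amine oxidase, and Sncg, a synuclein, are also expressed by adipocytes, whose markers fell in the same libraries, and their part was not tested. The gene that rose was smoothelin (Smtn, log2 fold change 1.08), named after its value was seen.

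**Figure D4:**
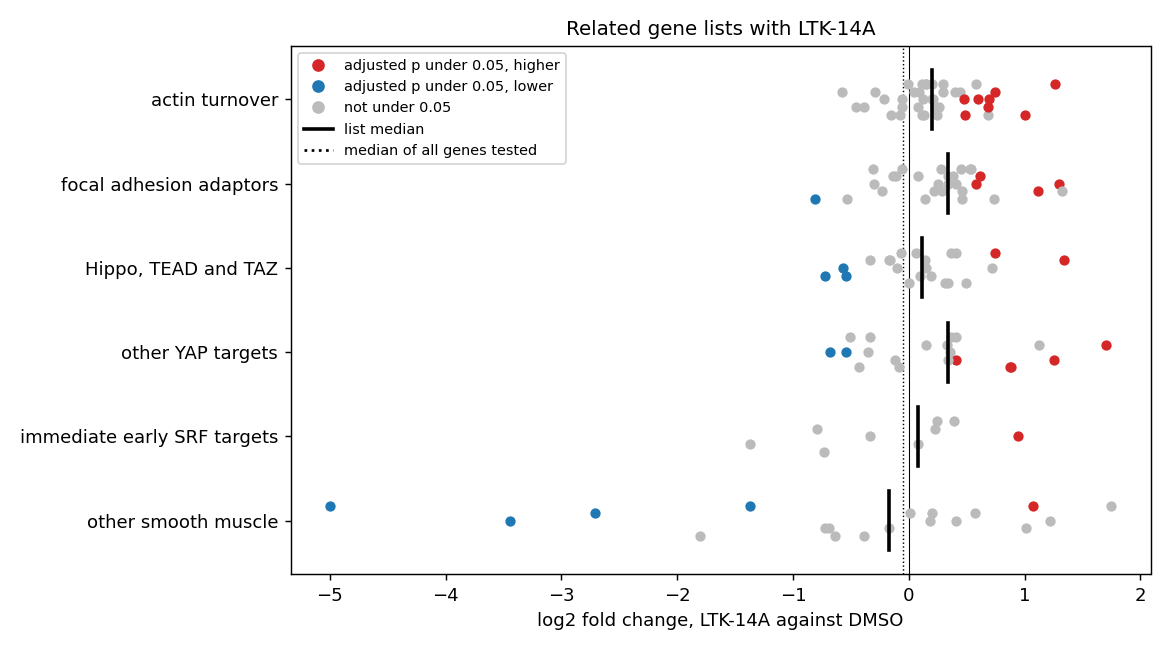
Each point is a gene of a related list, with its log2 fold change for LTK-14A against DMSO on the horizontal axis, red or blue where the adjusted p was under 0.05; the thick bar is the list's median and the dotted line the median of all genes tested. Medians run from -0.17 for other smooth muscle genes to 0.34 for focal adhesion adaptors and other YAP targets, with genes that rose and fell in 4 of the 6 lists.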

How the data were processed

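Values came from 1 deposited table with 1 value per gene and sample. Read from the values themselves, each deposited number is a log10 value taken of a log2 value of the authors' normalized count. Both logs were undone, and 0, a placeholder for at most 1, was kept as 0. The genome build named in the submitters' processing notes is mm10. Libraries came from a stranded kit with ribosomal RNA removal, per the labels' protocols. The authors' aligner, counter, strand setting, annotation and normalization were not given in the sources used here, so overlapping and near-identical genes are uncertain. Taking the commonest low value of a library as its step, only 23.4% to 28.8% of its low values were whole steps within 0.01, so reads were not recovered and no count test was used.

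Genes at 1 or more in at least 2 samples (24139) were fitted as log2(value + 1) in limma 3.58.1 (R 4.3.3): 3 group means over all 6 samples, a mean-variance trend, no replicate block, two-sided, Benjamini-Hochberg at 0.05 over all genes. Fold changes on this scale understate low genes. Exon lengths and overlaps came from GENCODE vM21, promoters from RefSeq. Python 3.11.15 with pandas 2.3.3 prepared values; the fit was checked on simulated data. The members and lists were chosen with earlier results of these data known. All 37 members are named; from each related list, up to 4 genes of smallest adjusted p; some genes and 1 list are not reported here.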

Additional observations from a re-analysis of the deposited data

How the results depend on the processing

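With 2 libraries a group, the counts of members moved with the fit. For LTK-14A against DMSO, where 6 rose and 3 fell, 10 rose after scaling by the median of ratios (4.73% of all genes did), 10 when genes averaging under 20 were left out (10% did), and 13 in a fit of those 2 groups alone (6.7% did), against 3.98% as reported; without the variance trend 2 rose and 1 fell (1.46% and 3.53%). With each library left out in turn, the members passing and the share of all genes passing moved the same way. For LTK-14A against untreated, where 7 rose and 4 fell (4.68% and 8.17% of all genes), 1 rose and 2 fell without the trend (1.72% and 4.02%). In that comparison 4 rose with a pseudocount of 0.1 (4.25%), and 3 rose in a fit of those 2 groups alone (2.98%). Leaving out 1 library again moved both the members and all genes. A lone remaining library was assumed to vary like the other groups. For DMSO against untreated the count was 0 in every setting run. The share of Myh10 among myosin heavy chains differed by -10.2 percentage points per kilobase and by -8.69 without division by length.

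The sign of the LTK-14A against DMSO log2 fold change turned, never past the threshold, for Actb (-0.15) and Lmod1 (0.13) after quantile normalization, and for Lmod1 (0.0061) and Yap1 (0.041) after scaling by the median of ratios. With 1 library left out, values ran from -0.019 to 0.11 for Actb, from -0.10 to 0.36 for Vcl, from -1.6 to 0.074 for Cnn1, from -0.36 to 0.27 for Lmod1, from -0.068 to 0.37 for Mkl1 and from -0.14 to 0.12 for Yap1. The cause was not tested. With the replicate number as a block, 7 members rose and 3 fell against DMSO (the seventh was Myh9), where 4.19% and 6.72% of all genes did. Against untreated, 7 rose and 5 fell (Ankrd1 lost its call, and Cnn3 and Srf gained one), where 5.12% and 8.42% did. With DMSO alone 0 members changed, where 0.0207% of all genes rose and 0% fell. The labels do not say whether same-numbered samples belong together. Across 13179 genes, their deviations correlated at 0.17 (untreated and DMSO), -0.018 (untreated and LTK-14A) and 0.052 (DMSO and LTK-14A). With 1 pair of samples per group, these values cannot settle whether a number marks a shared batch. Reads per gene are unknown, so for members near the floor (Ankrd1, Ctgf, Cnn1 and Actg2) depth limits what can be said.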

Other observations

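Within the untreated group, the members differed between the libraries in 1 direction. Of 33 members with a mean of at least 20, 28 were higher in untreated replicate 2 than in untreated replicate 1, with a median log2 ratio of 0.22, while 50.72% of 13179 genes at that level were higher, with a median of 0.0073. The ratio was 1.67 for Des, 1.57 for Myh9, 1.55 for Srf, 1.51 for Flnc and 1.47 for Acta2. Untreated replicate 2 is the library with more ribosomal RNA and with the higher sum of preadipocyte and fibroblast markers. Most of that difference in sum lay in Col1a1 (20565 in untreated replicate 1 and 39648 in untreated replicate 2) and Col3a1 (20591 and 34884). Ly6a, Cd34 and Dpp4 were lower in untreated replicate 2. The part of ribosomal RNA or of these markers in the ratios was not tested. Within the LTK-14A group, 3 of the 33 were higher in replicate 2 than in replicate 1 (median log2 ratio -0.13, against 47.55% of all genes and a median of -0.015), and within DMSO 14 of 33 were (median -0.0095). These are single pairs of libraries, and no test was run.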
